A study of Glycine max with 14 samples.

Results

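The chromosome 13 identifier block is a run of soybean gene models whose locus identifiers lie between Glyma13g11810 and Glyma13g12210, both included. It held 52 models of 41 loci, out of 78773 models of 69145 loci measured in the series. The models were chosen by measured values, namely the share of reads they took and the gap between the replicate series labelled BR2 and BR1, so the size of that gap is given here as a description, with no test of these models.

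RNA was sequenced from cotyledons of germinating soybean (Glycine max) of the cultivar Williams, grown in a greenhouse and lyophilized before total RNA was extracted. Cotyledons are the storage leaves of the embryo, which feed the seedling and then turn green. The 14 libraries covered 7 stages, with 1 BR2 and 1 BR1 library at each: 1 day after imbibition (stage 1), 2 days after planting (stage 2), and 2 to 3, 3 to 4, 4 to 5, 5 to 6 and 6 to 7 days after planting (stages 3 to 7). All libraries came from the same cultivar and tissue with no treatment named. Library titles number the BR2 and the BR1 libraries as separate consecutive runs. No source used here says what BR marks beyond a biological replicate, or whether the replicates came from separate plantings, and p-values measure only the spread between these libraries.

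The files give each model by identifier alone. As background, soybean carries its main tandem array of ribosomal RNA genes on chromosome 13. Ribosomal RNA makes up most of the total RNA of a plant cell. In the RefSeq gene table of assembly Glycine_max_v4.0, 406 of the 459 genes of the class rRNA lie on chromosome 13. That table holds 0 of the identifiers used here, so no product is given for any block model, and whether any of them overlaps a ribosomal RNA gene was not tested. The tissue label could not be checked against marker genes for the same reason.

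Values are RPKM, the reads of a model scaled to its length and to all reads assigned in the library. The reads behind them were recovered from the values, and library totals ran from 83892589 to 130723918 read assignments. A read assignment is not an independent molecule, and 1 read may be assigned to more than 1 model. The stage 1 libraries stood apart from each other outside the block as well: of the 44400 tested models outside it, 31.9% differed at least 2-fold between BR2 and BR1 at stage 1 on the log2(RPKM + 1) scale, against 3.36% to 6.64% at the other stages.

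Of the 52 block models, 50 had reads in every library and passed the filter of at least 1 RPKM in at least 2 libraries. Glyma13g12100.1 and Glyma13g12110.1 did not pass: they had at most 19 and 13 reads in any library and reached 0.144 and 0.178 RPKM. Glyma13g12130.1 passed but behaved unlike the others and is described apart. The remaining 49 models, from 38 loci, had means of 14.5 to 3355 RPKM over the 14 libraries and never fewer than 1134 reads in a library. In all, 26 models averaged at least 1000 RPKM.

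The reads were spread over many models. The block's read assignments summed to 65319974 over the 14 libraries, of which 11 models were needed to make up 50% and 36 to make up 90%. Only 4 models held at least 5% each. Glyma13g11940.8 (1474 bases) carried 7.82% of the block's reads, Glyma13g11990.1 (1458 bases) 6.82%, Glyma13g11840.1 (1396 bases) 6.12% and Glyma13g11940.1 (45822 bases) 5.19%. Another 36 models held between 1% and 5% each, and 10 more tested models held between 0.0462% (Glyma13g12130.1) and 1%. By locus, the 8 models of Glyma13g11940 took 21.95% of the block's reads, the 3 models of Glyma13g11820 took 7.48% and Glyma13g11990 took 6.82%.

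**Figure D1:**
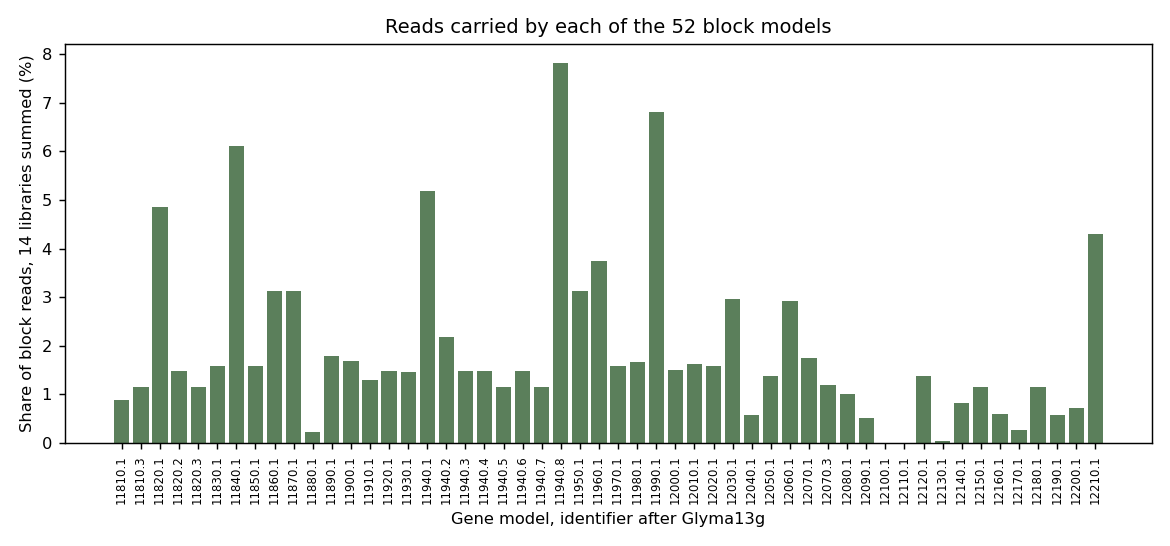
Share of the block's reads (%, 14 libraries summed) for each of the 52 models, in identifier order; each bar is 1 model. The tallest bar is Glyma13g11940.8 at 7.82%, and Glyma13g12100.1 and Glyma13g12110.1 have bars too low to see.

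Model length was recovered together with the reads, and the block was unusual in both directions. Its median model length was 634 bases, against 1404 bases for tested models outside it, and 34 of the 52 models were under 1000 bases. At the other end, all 7 models with a recovered length over 20000 bases were block models, from Glyma13g12000.1 (21114 bases) to Glyma13g12030.1 (72756 bases). The longest recovered length outside the block was 16411 bases. Models with no reads have no recovered length, and for models with few reads it can come out too short. These 7 long models took 19.5% of the block's reads. Their mean levels were low for the block, from 14.5 RPKM (Glyma13g11980.1) to 68.6 RPKM (Glyma13g11820.1), on a scale that divides by length.

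Many block models had equal or nearly equal read numbers. The 52 models held 47 distinct sets of read numbers over the 14 libraries, and 8 models shared theirs exactly with another. Glyma13g11860.1 and Glyma13g11950.1 were such a pair, at 412277 reads each in the stage 1 BR2 library. Glyma13g11810.3, Glyma13g11820.3, Glyma13g11940.5 and Glyma13g11940.7, each of 573 bases, had 191807 reads each there. Glyma13g12150.1 and Glyma13g12180.1, each of 489 bases, had 191810 reads each. Allowing a difference of 1% in every library, 15 models fell into 4 such sets. The first held the 6 models of 573 or 489 bases just named. The second held Glyma13g11860.1, Glyma13g11870.1 and Glyma13g11950.1, with 411874 to 412277 reads in that library. The third held Glyma13g11830.1, Glyma13g11850.1 and Glyma13g11970.1, with 197758 to 197855 reads. The fourth held Glyma13g11940.3, Glyma13g11940.4 and Glyma13g11940.6, with 246079 to 246345 reads. Most of these models belong to different loci, so a sum over the block may count some reads more than once, and the separate levels of such models are uncertain. The sources used here do not say how reads with more than 1 match were handled.

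In the BR2 series the block took 15.3%, 11.6%, 6.53%, 11.7%, 3.43%, 7.81% and 4.64% of all read assignments at stages 1 to 7. In the BR1 series it took 3.43%, 1.34%, 1.15%, 1.07%, 0.720%, 0.566% and 0.702% at the same stages. Every BR2 library held a larger share than the BR1 library of its stage. The highest BR1 share, at stage 1, was about level with the lowest BR2 share, at stage 5. Counting each distinct set of reads once, the shares were 13.9% at stage 1 in BR2 and 3.22% at stage 1 in BR1. Models with nearly equal reads still counted separately there. With 1 model per locus, the shares at stage 1 were 12.1% in BR2 and 2.90% in BR1.

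**Figure D2:**
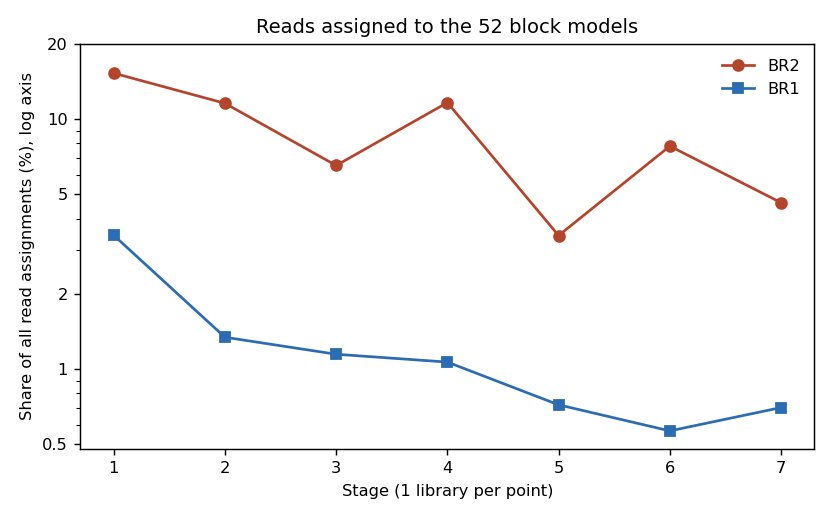
Share of all read assignments taken by the 52 block models (%, log axis) at each stage; each point is 1 library. BR2 runs between 3.43% and 15.3% and lies above BR1, which runs between 0.566% and 3.43%, at all 7 stages.

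The BR2 over BR1 ratio of the block's share was 4.45, 8.63, 5.69, 10.9, 4.76, 13.8 and 6.60 at stages 1 to 7. Its median over the 7 stages was 6.60, and 7.61 without stage 1. The ratios at stages 2, 4 and 6 were all above those at stages 1, 3, 5 and 7. With 1 library of each series at a stage, a change of the ratio between stages has no replicate check. The remaining models with a chromosome 13 identifier, summed, took a share of reads with a BR2 over BR1 ratio of 0.774 at stage 1 and of 0.885 to 1.05 at stages 2 to 7. Single models among them had a gap: Glyma13g04580.1, named after its values were seen, had ratios of 3.94 to 18.4. These shares are of all reads, so the block's larger share in BR2 lowers the ratios of models outside it.

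Model by model, 49 of the 50 tested block models were higher in BR2 than in BR1 at all 7 stages, and 46 of them were more than 3 times higher at every stage. The other 3 missed this only at stage 1, where Glyma13g11880.1 had a ratio of 2.41, Glyma13g12190.1 of 2.69 and Glyma13g12160.1 of 2.71. Outside the block, 43434 tested models had reads in every library. Of these, 976 (2.25%) were higher in BR2 at all 7 stages and 19 (0.0437%) were more than 3 times higher at all of them. RPKM divides by all reads assigned in a library, so the block's larger share in BR2 lowers these outside ratios. As background, 0.418% of all 44450 tested models were higher in BR2 at an adjusted p under 0.05 in a limma fit with stage and BR terms. The gap chose the block, so its counts restate that choice and nothing is read from them.

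The median ratio of the 49 models was 4.30, 8.19, 5.67, 10.4, 4.99, 15.3 and 6.35 at stages 1 to 7. The range was narrowest at stage 5, from 3.50 to 7.02, and at stage 6 it ran from 8.51 to 24.3. The ratio was highest at stage 6 in 41 models and at stage 4 in the other 8.

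**Figure D3:**
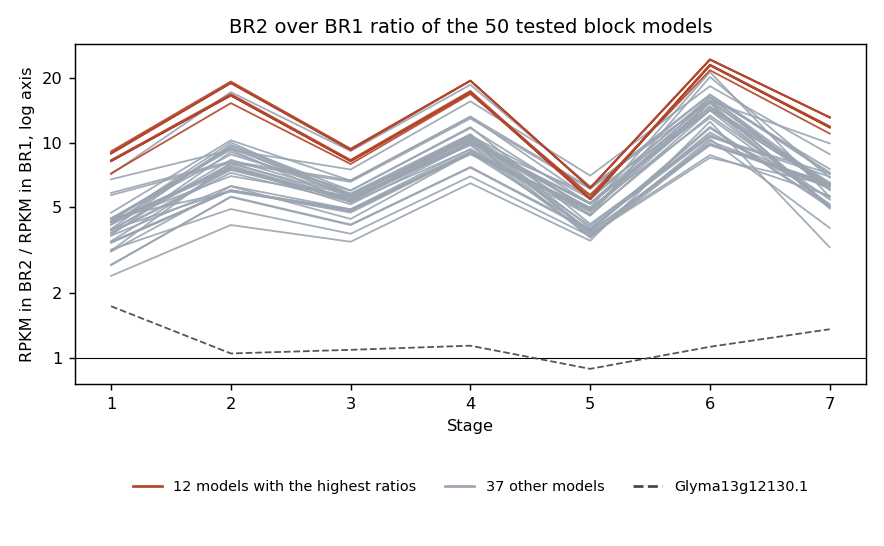
RPKM in BR2 over RPKM in BR1 (log axis) at each stage for the 50 tested block models; each line is 1 model, the horizontal line marks equal levels. Of the 49 solid lines, 41 peak at stage 6 and 8 at stage 4, and the dashed line of Glyma13g12130.1 stays between 0.890 and 1.74.

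The model with the most reads, Glyma13g11940.8, was at 8022, 5947, 3572, 5993, 1962, 3992 and 2329 RPKM at stages 1 to 7 in BR2. In BR1 it was at 2104, 822, 672, 592, 373, 254 and 384 RPKM. Its BR2 value was above its BR1 value at every stage, with 1 library of each. The lowest BR2 value (stage 5) lay below the highest BR1 value (stage 1). Its ratio ran from 3.81 at stage 1 to 15.7 at stage 6.

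Glyma13g11990.1 was at 6340, 5165, 2939, 5935, 1558, 4117 and 2354 RPKM at stages 1 to 7 in BR2. In BR1 it was at 1597, 529, 491, 503, 372, 386 and 328 RPKM. From stage 2 on, the BR1 values of this model stayed close together, while in BR2 stages 4 and 6 stood above their neighbours. Its ratio peaked at stage 4 (11.8) and not at stage 6 (10.7).

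Glyma13g11840.1 was at 6391, 4511, 2948, 5052, 1654, 3446 and 1961 RPKM at stages 1 to 7 in BR2. In BR1 it was at 1623, 753, 623, 567, 361, 244 and 386 RPKM. The order of the stages was the same as in Glyma13g11940.8 in both series.

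Glyma13g11940.1, the long model of the leading locus, was at 165, 121, 73.4, 130, 39.97, 102 and 52.5 RPKM at stages 1 to 7 in BR2. In BR1 it was at 42.2, 15.2, 12.9, 12.1, 8.21, 6.61 and 8.31 RPKM. It followed the stages like the short model of its locus, at a far lower level per length. The model with the highest mean level, Glyma13g11960.1 (556 bases, named here after its values were seen), reached 9240 RPKM at stage 1 in BR2 and 2146 RPKM at stage 1 in BR1.

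Glyma13g12130.1 (5575 bases) did not share the gap. It was at 3.96, 4.15, 4.64, 4.08, 4.16, 4.27 and 3.97 RPKM at stages 1 to 7 in BR2, and at 2.28, 3.96, 4.25, 3.58, 4.68, 3.79 and 2.92 RPKM in BR1. Its ratio stayed between 0.890 and 1.74, with the highest value at stage 1. Across the 14 libraries, its log2(RPKM + 1) correlated with that of the other tested block models at only 0.0989 to 0.245, whereas the 1176 pairs of those 49 models had correlations of at least 0.958, with a median of 0.992. These correlations describe libraries that all the models share. They pool BR2 and BR1, so the gap that chose the block enters them, and some of the models hold nearly equal reads. Nothing further is read from their size.

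**Figure D4:**
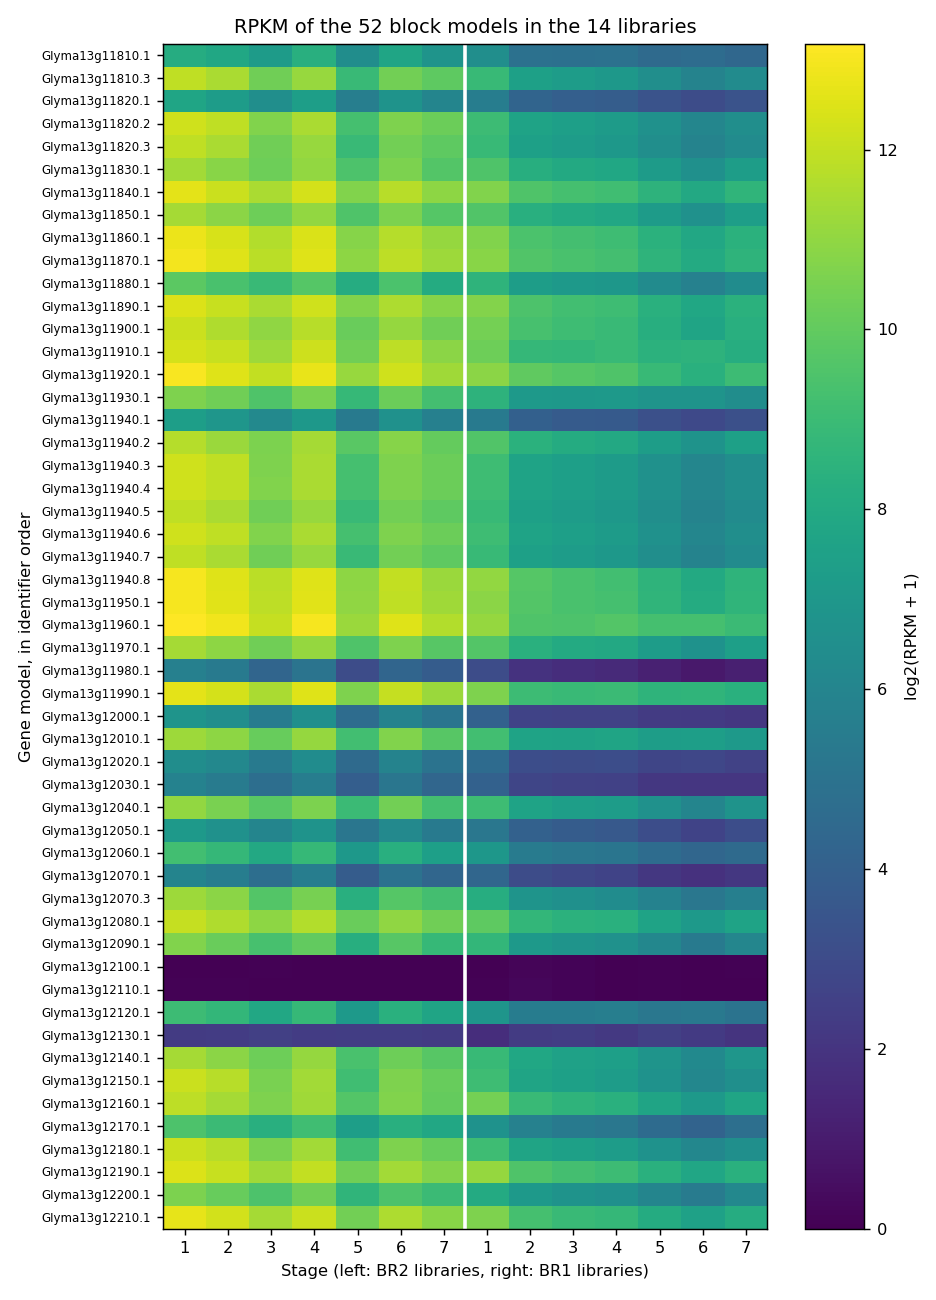
Level of the 52 block models (rows, in identifier order) as log2(RPKM + 1) in the 14 libraries, with BR2 stages 1 to 7 left of the white line and BR1 stages 1 to 7 right of it. Stage for stage, rows are brighter left of the line than right of it, except Glyma13g12100.1, Glyma13g12110.1 and Glyma13g12130.1.

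Within the block, the replicate gap was not of 1 size. A set of 12 models had median ratios of 11.01 to 13.1, against 3.50 to 8.82 for 36 others and 9.91 for Glyma13g12000.1. The sets in this paragraph were drawn after the values were seen and are a description. The 12 were Glyma13g11810.3, Glyma13g11820.2, Glyma13g11820.3, Glyma13g11940.3 to Glyma13g11940.7, Glyma13g11980.1, Glyma13g12070.3, Glyma13g12150.1 and Glyma13g12180.1, and 9 of them belong to the sets with near-equal reads given above. One of them, Glyma13g11820.2, was at 4788 RPKM in BR2 and 526 RPKM in BR1 at stage 1, and at 1608 RPKM in BR2 and 66.1 RPKM in BR1 at stage 6. The 12 models held 19.5% of the block's reads in BR2 and 10.4% in BR1 at stage 1, and 13.1% in BR2 and 7.76% in BR1 at stage 6. Their part of the block was larger in BR2 at both stages, which largely restates their choice by a high ratio.

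A second set was picked, after the values were seen, by its course over stages in BR1. In 8 models the BR1 level at stage 6 was still 0.242 to 0.328 of that at stage 1, against 0.1003 to 0.196 in 28 others and 0.118 to 0.126 in the 12 models above. The 8 were Glyma13g11810.1, Glyma13g11910.1, Glyma13g11930.1, Glyma13g11960.1, Glyma13g11990.1, Glyma13g12010.1, Glyma13g12020.1 and Glyma13g12120.1, with lengths from 339 to 24078 bases. In BR1 they held 29.9% of the block's reads at stage 6 and 18.2% at stage 1, which follows from choosing them by their BR1 levels at these stages. In BR2 they held 21.7% at stage 6 and 16.6% at stage 1. Glyma13g12000.1, at 0.237 and with a median ratio of 9.91, met the cutoffs of both sets and is listed apart from each.

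**Figure D5:**
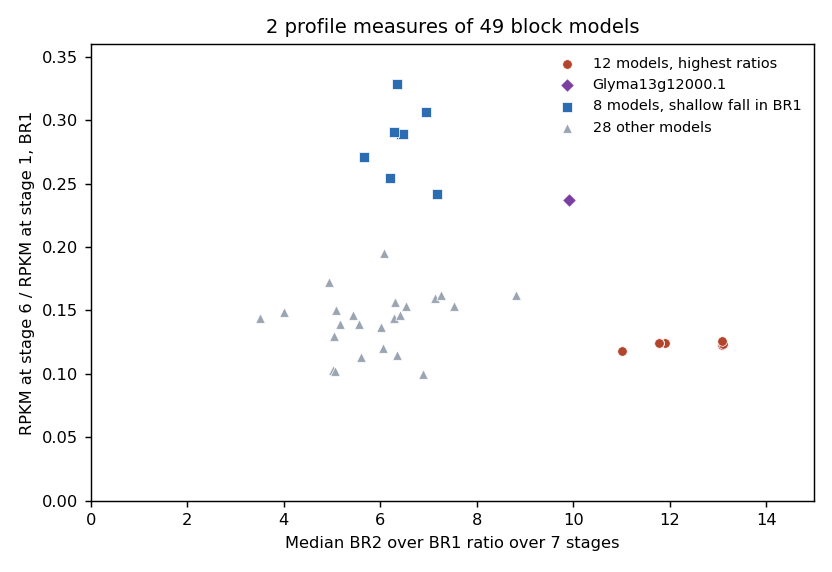
Median BR2 over BR1 ratio over the 7 stages (horizontal) against the BR1 level at stage 6 over that at stage 1 (vertical) for 49 block models; each point is 1 model. The 12 models with the highest ratios lie at 11.01 to 13.1 on the horizontal axis, and the 8 models described just above lie at 0.242 to 0.328 on the vertical axis.

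Over the stages, block levels were highest at stage 1 in both series. In BR2 48 of the 49 models had their highest level at stage 1, and in BR1 all 49 did. At stage 2, the median over the 49 models was 0.754 of the stage 1 level in BR2 and 0.378 in BR1. In BR1 the medians were then 0.860, 0.907, 0.669 and 0.676 of the stage before at stages 3, 4, 5 and 6, and 1.39 times the stage before at stage 7. In BR1, 40 of the 49 models were lowest at stage 6 and 9 at stage 7. In BR2 the course zigzagged: all 49 models were lower at stages 3, 5 and 7 than at the stage before, and all 49 were higher at stages 4 and 6 than at the stage before, with medians of 1.78 and 2.39 times. In BR2, 48 of the 49 models were lowest at stage 5. The block's share at stage 7 was 0.303 of that at stage 1 in BR2 and 0.204 in BR1. In bulk tissue, fewer cells of a type and less RNA per cell cannot be told apart, and RPKM is relative to all other reads in a library.

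For the 5 models with the most reads, the correlation of log2(RPKM + 1) with stage number was computed within each series, giving 10 correlations. The models share libraries and may share reads, so these tests are not independent. In BR2, Pearson's r ran from -0.759 to -0.599 and Spearman's rho was -0.679 in all 5 models (7 stages, exact two-sided permutation tests, adjusted p = 0.0888 to 0.160 for r and 0.1095 for rho), which missed the threshold. In BR1, Pearson's r ran from -0.900 to -0.826 and Spearman's rho from -0.929 to -0.893 (7 stages, exact two-sided permutation tests, unadjusted p = 0.00198 to 0.00556 and 0.00675 to 0.0123, adjusted p = 0.00893 to 0.0111 for r and 0.0246 for rho), so these models fell with stage in BR1. Without stages 1 and 7, r ran from -0.482 to -0.313 in BR2 and from -0.975 to -0.883 in BR1. In BR1, Glyma13g11990.1 then no longer passed (5 stages, exact permutation p = 0.0833 for r). Whether the course over stages differed between BR2 and BR1 was not tested.

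The models were chosen for a large gap between BR2 and BR1 within stages, and in a fit with a mean per stage alone that gap is the residual spread. The count of block models called by such a fit is therefore largely set by the choice of models, and nothing is read from it against the background. In a limma fit of log2(RPKM + 1) with a mean per stage, the F test over the 7 stages called 58.0% of all tested models and 0 of the 50 block models at an adjusted p under 0.05, and 0 of the 50 had an unadjusted p under 0.05. For stage 7 against stage 1, limma called 18.4% of all tested models as higher and 16.6% as lower at stage 7, and called 0 block models in either direction (adjusted p under 0.05 and a log2 fold change of at least 1 in size), with 0 block models under 0.05 before adjustment. Voom with limma, run on the recovered reads, also called 0 block models in both tests. A fit with the replicate number as an added term takes out the mean log2 gap between BR2 and BR1, not its change over stages. With that term, the F test called 60.8% of all tested models and 48 of the 50 block models. In that fit 17.2% of all tested models and 49 of the 50 block models were lower at stage 7 (limma adjusted p = 0.00277 to 0.0105 for the 49). The 49 models had nearly the same course over the libraries, and some hold nearly equal reads, so these counts are not of independent models. Same-numbered libraries deviated alike in most pairs of stages, but no source used here says what they share, so both fits are given. The 49 models had log2 fold changes of -2.27 to -1.60 in both, with standard errors of 1.32 to 2.17 without the added term (limma adjusted p = 0.232 to 0.473) and of 0.368 to 0.522 with it. All 49 were lower at stage 7 than at stage 1 in each series, at 0.248 to 0.392 of the stage 1 level in BR2 and 0.154 to 0.276 in BR1. Over the 50 tested block models the median log2 fold change was -1.96, against -0.12 over all tested models. Glyma13g11940.8 averaged 1356 ± 1375 RPKM at stage 7 and 5063 ± 4185 RPKM at stage 1 (SD, n = 2 each; log2 fold change -2.12 ± 1.67 SE, limma adjusted p = 0.326). The spread between the BR2 and BR1 libraries of a stage was about as large as these stage means. Glyma13g12130.1 had a log2 fold change of 0.13 ± 0.247 SE (limma adjusted p = 0.692).

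Levels changed sharply at the lower edge of the block, and on the upper side 1 locus beyond it. Just below it, Glyma13g11790.1 and Glyma13g11800.1 never exceeded 0.0305 and 0.0713 RPKM, while the first block locus, Glyma13g11810, held models of 117 and 1013 RPKM on average. Above it, Glyma13g12220.1 (245 bases), which the identifier range leaves out, averaged 179 RPKM, against 2057 RPKM for Glyma13g12210.1, the last model inside. It was at 552, 383, 228, 337, 81.5, 263 and 164 RPKM at stages 1 to 7 in BR2 and at 157, 80.7, 74.3, 65.3, 41.6, 30.2 and 45.6 RPKM in BR1. Its ratio ran from 1.96 at stage 5 to 8.72 at stage 6, with the same peak at stage 6 as the block. The next identifier in the files, Glyma13g12420, did not exceed 0.216 RPKM.

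The patterns most like the block's were sought among 13196 models outside it with a mean of at least 10 RPKM, by the correlation over 14 libraries of log2(RPKM + 1) with the log2 of the block's summed RPKM. The correlation pools BR2 and BR1, so the gap that chose the block enters it. Only 2 models passed 0.9. They were Glyma05g09990.1 (468 bases, r = 0.997) and the neighbour Glyma13g12220.1 (r = 0.979). Glyma05g09990.1, with a chromosome 5 identifier, was at 2588, 1820, 1192, 2156, 659, 1208 and 833 RPKM at stages 1 to 7 in BR2 and at 449, 222, 178, 163, 106, 72.1 and 115 RPKM in BR1. Its BR2 over BR1 ratio ran from 5.77 at stage 1 to 16.8 at stage 6. The block model Glyma13g12200.1, named after its values were seen, had nearly the same ratios (5.84 and 16.7 at these stages). Whether the 2 models share reads was not tested. In both series Glyma05g09990.1 had its highest level at stage 1. Its lowest level was at stage 5 in BR2 and at stage 6 in BR1, as in most block models.

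Because RPKM divides by all reads assigned in a library, the block's reads also enter the level of every other model. Relative to reads outside the block, the level of each model outside it would be 1.18 times the deposited value in the stage 1 BR2 library and 1.04 times in the stage 1 BR1 library. The factor was 1.04 to 1.13 in the other BR2 libraries and 1.01 in each of the other BR1 libraries.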

How the data were processed

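The deposited files hold 1 RPKM value per gene model and library, per the file headers. Bowtie is named in the submitters' processing notes; its settings, the build, the annotation and the counting were not given in the sources used here. Model lengths, library totals and reads were recovered from the RPKM values: each of the 67016 models with values above 0 in 2 or more libraries came out at whole reads in every library (tolerance 0.003 reads or, relative to the read number, 1e-08), holding at least 99.99% of each total. Values were tested as log2(RPKM + 1) with R 4.3.3 and its packages limma 3.58.1 and statmod 1.5.0, for models of at least 1 RPKM in at least 2 libraries (44450), using a mean per stage, 7 residual degrees of freedom, a mean-variance trend and robust estimation. The stage 7 against stage 1 tests and the correlation tests were two-sided. Benjamini-Hochberg adjustment ran over every tested model in the limma fits, and over the 10 correlations of each kind for r and rho. On reads simulated for the stage 7 against stage 1 comparison (41982 models), 172 of 200 models changed 4-fold were recovered, with 4 false calls. The simulated reads had the same set spread for every model and no gap between BR2 and BR1, so this recovery does not apply to the block models. Correlations used exact permutation (NumPy 2.4.6). Models with at least 5% of the block's reads are given in every library. The members and sets were chosen with earlier results of these data known. No sequence is shown, since no table used here holds these identifiers.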

Additional observations from a re-analysis of the deposited data

How the results depend on the processing

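The replicate numbers were checked for pairing. Deviations from the stage mean of same-numbered libraries correlated over 0.1 in 18 of 21 pairs of stages (lowest -0.173, median 0.274). Over tested models outside the identifier block this also held in 18 of 21 pairs (lowest -0.198, median 0.252). Same-numbered libraries thus deviated alike in most pairs of stages, and no source used here says what they share. With the replicate block (replicate number as a term), limma called 48 of 50 block models in the F test, where 60.8% of all models were called, and 49 as lower at stage 7 than at stage 1, where 17.2% were called lower and 18.7% higher. The models of the identifier block had nearly the same course over the libraries, so these counts are not of independent models. With the replicate block, Glyma13g11940.8 had the same log2 fold change of -2.12 with a limma adjusted p of 0.00477. In fits chosen after seeing the data, the block combined with RPKM rescaled to reads outside the identifier block gave 49 and 49 calls and -2.22, and the block combined with limma voom gave 49 and 49 calls and -2.11. With the replicate block and 1 library left out, the F test called 33 to 49 models and stage 7 against stage 1 called 41 to 49, and the log2 fold change of Glyma13g11940.8 was -2.62 to -1.62. Without that term, both counts were 0 under all 8 other settings and with any 1 library left out. There the log2 fold change of Glyma13g11940.8 was -2.22 to -1.95 over the 8 settings and -3.42 to -0.82 with 1 library left out (limma adjusted p 0.239 to 0.786). It was -3.08 and -1.15 without the BR1 or the BR2 library of stage 1, and -0.82 and -3.42 without the BR1 or the BR2 library of stage 7, where 1 series then has no partner. Upper quartile scaling put the median log2 fold change of all tested models at 0.02, against -0.12 as deposited, and that of the block at -1.79, against -1.96. The median BR2 over BR1 ratio was 6.25 to 6.87 under the other ways of counting and 6.15 to 7.61 with 1 stage left out. The number of correlations passing, 5 of 10 by Spearman's rho, was 4 to 5 under each alternative.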

Other observations

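Of the 43434 tested models outside the block with reads in every library, 19 were more than 3 times higher in BR2 than in BR1 at all 7 stages, and 26 were more than 3 times lower. Among the 10 highest models by RPKM in a library, 10, 10, 8, 8, 0, 1 and 1 were block models at stages 1 to 7 in BR2. In BR1, 5 were block models at stage 1 and 0 at each of stages 2 to 7.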
